A study of Mus musculus with 48 samples.

Results

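Bulk RNA-seq libraries of gonadal somatic cells (GSCs) taken from mouse female gonads at the embryonic stage E13.5 were compared with those of E12.5, a day earlier, with 2 libraries at each stage, which are 4 of the 48 samples of the series. The members were picked by their labels, as the libraries named for the stages E12.5 and E13.5, but earlier results of these data were known when that choice was made. Both stages were taken from C57BL/6 embryos, with no treatment and no altered allele, and germ cells had been depleted with magnetic beads against SSEA1, a surface antigen of primordial germ cells. The comparison asks what changes in the mixed somatic cells of the gonad over that day. The libraries of E16.5 and of the adult stage labelled P6w (2 each) entered the same statistical model and are named only where a level is set beside them.

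The early gonad is bipotential. Its somatic cells come from the coelomic epithelium and are specified by transcription factors such as Wt1, Gata4, Nr5a1 and Lhx9, and they then become Sertoli cells in the testis or pre-granulosa cells in the ovary. In the testis the Y-linked gene Sry switches on Sox9, followed by Amh, Dhh and Fgf9, whereas in the ovary Wnt4 and Rspo1 signal through beta-catenin and Foxl2 is activated. Pre-granulosa cells leave the cell cycle early, with the inhibitor Cdkn1b (p27) as a mark of that exit. The germ cells beside them start meiosis under retinoic acid, which induces Stra8, while the testis breaks retinoic acid down with Cyp26b1.

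The E12.5 libraries held 19518037 and 18060579 counts and the E13.5 libraries 22259044 and 19753208, so that depth was alike at both stages and the replicates of a stage agreed closely. Of the genes with at least 20 CPM (counts scaled to the normalised library size), 0 of 7415 were more than 2-fold apart between the E12.5 replicates and 5 of 6944 between those of E13.5. Both libraries of a stage carry one sample name in their labels, all 4 were run on lane 5, and nothing states that they came from separate pools of embryos. The p-values therefore measure only a spread between libraries, which may be technical. That spread was estimated over all 8 libraries of the model, those of E16.5 and P6w included. With 2 libraries against 2 an exact permutation test of a single value cannot go below a two-sided p of 0.33, and the adjusted p-values below come from edgeR's quasi-likelihood model over all genes. These are bulk libraries, in which fewer cells of a type and less RNA per cell cannot be told apart.

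Several measurements went against the labels or moved with the stage, and they stand beside the results that follow. RNA of Y-linked genes was present in both E12.5 libraries and nearly absent from both E13.5 libraries, although both stages are described as female. RNA of proteins that the liver secretes was higher in both E13.5 libraries. Short genes rose and long genes fell across the whole table. Summed over the 6 Y-linked genes in the table, the level was 9.59 and 8.4 CPM at E12.5 against 0.254 and 0.228 CPM at E13.5. Summed over the 38 liver genes it was 65.7 and 61.1 CPM against 499 and 524 CPM.

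Of 16398 genes tested, 7530 were called at an adjusted p below 0.05, which is 45.9% of them. There were 3908 higher genes (23.8%) and 3622 lower genes (22.1%) at E13.5, and in 7525 of the 7530 the libraries of the stages did not overlap. Over all genes tested, called or not, they did not overlap in 12406 of 16398, so a lack of overlap adds little to a call. The change followed gene length, with a Spearman correlation of -0.49 across 16169 genes between the log2 fold change and the length of all exons, which is a description and carries no p because the genes share the same 4 libraries. Among 10 groups of equal size by length, the one with the shortest exons, up to 1456 bases, had a median log2 fold change of 0.79 and 47.1% of its genes were higher. The group with the longest, from 9580 bases on, had a median of -0.71 and 62.2% of its genes were lower. The trend was the same for each single pair of libraries, at -0.49 to -0.50. Between replicates it was 0.01 at E12.5, -0.06 at E13.5 and -0.05 at P6w, but -0.28 at E16.5. It was -0.08 for E16.5 against E12.5 and 0.34 for E16.5 against E13.5, a pair of comparisons that share libraries with the one described here.

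Because of this trend a second fit was made, in which a smooth curve in gene length was removed from every library before testing (called the length term below). The correlation with length was then 0.01, and 5394 of 16169 genes were called, 2950 higher (18.2%) and 2444 lower (15.1%). Both fits called 2188 genes higher (13.3% of all tested) and 1938 lower (11.8%), and 30 genes were called in opposite directions. A length trend that came from the cells and one that came from the RNA or the library preparation cannot be told apart in these 2 stages, and the length term removes both. In the following, log2 fold changes are E13.5 over E12.5 with their standard error, and "in both fits" means called the same way with and without the length term. Every count in a list stands beside the shares of all genes, 23.8% higher and 22.1% lower, or 13.3% and 11.8% in both fits.

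**Figure D1:**
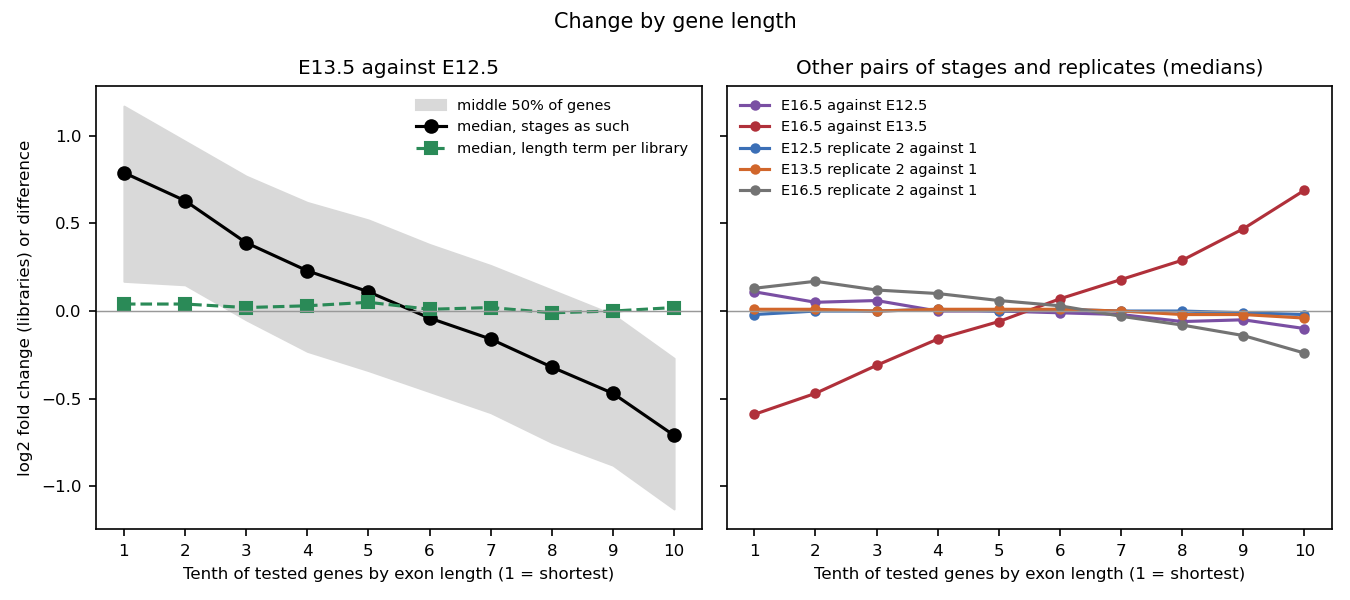
Left, median log2 fold change at E13.5 against E12.5 (y axis) in 10 equal groups of the tested genes by exon length (x axis, shortest first), with the middle 50% of genes shaded. The medians run from 0.79 to -0.71, and lie between -0.01 and 0.05 with the length term (squares). Right, the same groups for other pairs of stages and for replicate 2 against replicate 1 of a stage. The E12.5 and E13.5 replicates stay within 0.04 of 0, whereas those of E16.5 stand at 0.13 in the shortest group and -0.24 in the longest.

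The transcription factors of the gonad primordium were lower at E13.5 as a group. Of the 19 listed, 17 were tested and 13 were lower and 0 higher, against 22.1% of all genes lower, and 10 were lower in both fits, against 11.8% of all genes. The median log2 fold change of the list was -0.68 (-0.58 with the length term), against 0.03 over all genes tested. Wt1, which is needed for the gonad to form at all, stood at 532 and 537 CPM at E12.5 and 191 and 192 CPM at E13.5. Both E13.5 libraries lay far below both E12.5 libraries, with a log2 fold change of -1.48 ± 0.14 (adjusted p = 2.7e-06), or -1.21 (adjusted p = 1.6e-05) with the length term. Lhx9, a partner of Wt1 in the early gonad, read 312 and 305 CPM at E12.5 and 175 and 176 CPM at E13.5, a log2 fold change of -0.82 ± 0.11 (adjusted p = 5.2e-05). That call did not hold with the length term, where its value was -0.26 (adjusted p = 0.056).

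The GATA factors and their cofactor follow. Gata4, which is required for the genital ridge to thicken, read 183 and 179 CPM at E12.5 and 172 and 153 CPM at E13.5, and a log2 fold change of -0.16 ± 0.12 (adjusted p = 0.28) did not pass the test. It passed as lower with a term for GC content in place of the length term (-0.43, adjusted p = 0.012) and with the 4 libraries alone in the fit (-0.20, adjusted p = 0.034). Its relative Gata6 was lower in both fits, at 119.9 and 111 CPM at E12.5 and 68.2 and 75.9 CPM at E13.5. Zfpm2, the FOG2 cofactor that binds GATA factors, fell from 23.9 and 21.3 to 9.04 and 7.02 CPM (log2 fold change -1.49 ± 0.22, adjusted p = 8.6e-05). Nr5a1, which drives steroidogenic genes, was level at 196 and 219 CPM at E12.5 and 203 and 230.3 CPM at E13.5 (log2 fold change 0.06, adjusted p = 0.77).

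Further members of that list mark the stroma, the coelomic epithelium or the testis. Nr2f1 and Nr2f2, orphan nuclear receptors of interstitial cells, were both lower in both fits. Nr2f1 read 17.6 and 15 CPM at E12.5 and 7.82 and 5.93 CPM at E13.5 and Nr2f2 read 205 and 196 CPM at E12.5 and 99.3 and 91.4 CPM at E13.5, and in neither did the stages overlap. Emx2, a homeobox gene of the urogenital epithelium, fell less, with a log2 fold change of -0.40, and its call did not hold with any 1 library left out (adjusted p = 0.11 to 0.24). Dmrt1, which maintains the male fate of supporting cells, fell from 7.37 and 8.05 to 2.74 and 2.91 CPM (log2 fold change -1.45 ± 0.33, adjusted p = 0.0027). Tcf21, a basic helix-loop-helix factor of gonadal stroma, read 42 and 49.9 CPM at E12.5 and 65.9 and 57.5 CPM at E13.5. The stages did not overlap, but the difference was small beside the spread estimated over all 8 libraries and did not pass the test (log2 fold change 0.43 ± 0.25, adjusted p = 0.18, and 0.00, adjusted p = 1 with the length term). It passed as higher with the 4 libraries alone in the fit (0.39, adjusted p = 0.0073) and without the filter on low counts (0.41, adjusted p = 0.026). Osr1 likewise did not pass (log2 fold change 0.43, adjusted p = 0.056), while Sox4 and Cbx2 were lower in both fits, with log2 fold changes of -0.51 and -0.66.

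**Figure D2:**
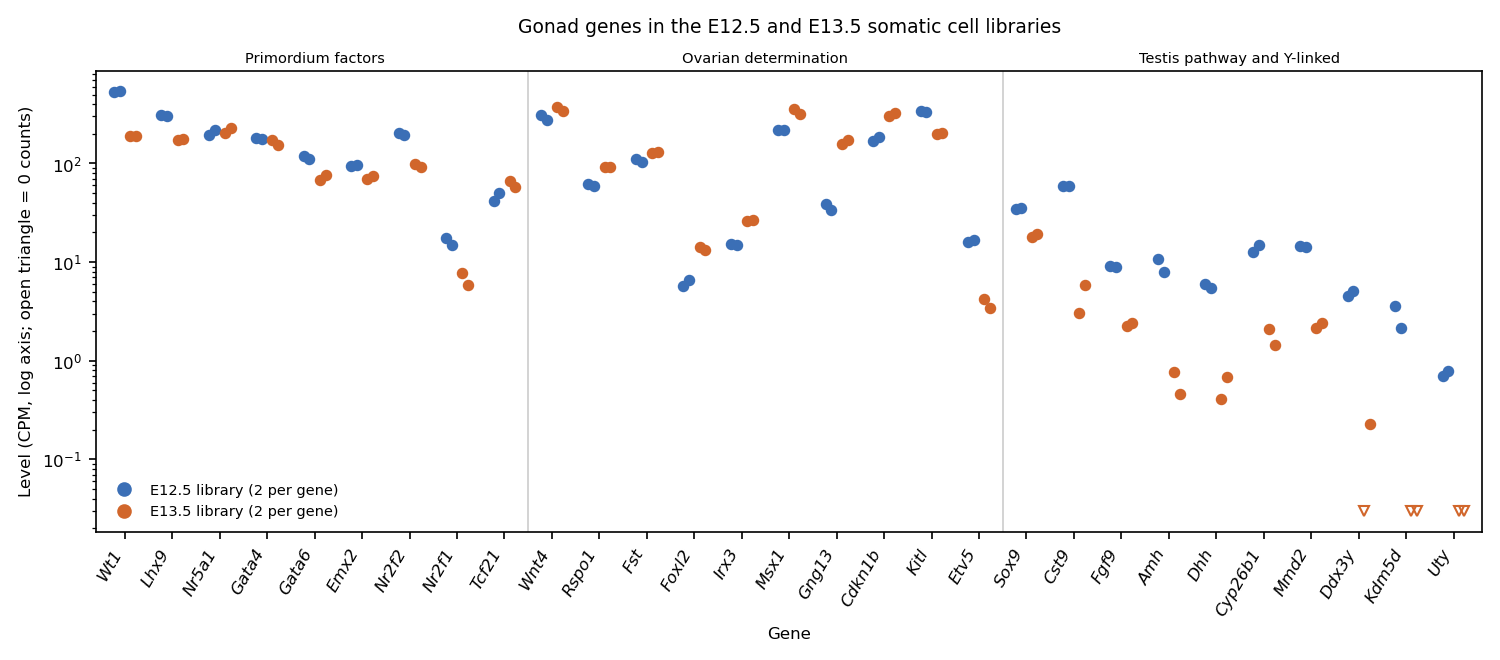
Levels in CPM (log axis) of genes of the primordium, of ovarian determination and of the testis pathway in each of the 2 libraries at E12.5 (blue) and at E13.5 (orange), with open triangles at libraries of 0 counts. Foxl2 and Gng13 lie higher at E13.5, whereas Cst9, Amh, Dhh, Mmd2 and the Y-linked genes lie far lower.

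The genes of ovarian determination were called about as often as all genes. All 24 were tested, 6 were higher (25% against 23.8% of all genes) and 5 lower (20.8% against 22.1%), and 5 were higher and 3 lower in both fits, with a median of 0.19 (0.11 with the length term). Foxl2 (chr9:98955288-98958543, mm10), the forkhead factor that keeps granulosa cells from turning into Sertoli-like cells, rose at E13.5. Its level was 5.79 and 6.62 CPM at E12.5 and 14.3 and 13.2 CPM at E13.5, a log2 fold change of 1.15 ± 0.20 (adjusted p = 0.00031) that stood at 0.99 (adjusted p = 0.0014) with the length term. Gng13, a G-protein gamma subunit, showed the largest rise of the list, from 38.5 and 34 to 159 and 172 CPM (log2 fold change 2.19 ± 0.14, adjusted p = 1.2e-07, and 1.34, adjusted p = 2e-05 with the length term). In both genes the E13.5 libraries lay close together and well above those of E12.5.

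In the Wnt branch of ovarian determination none of the 5 genes given here was called the same way in both fits. Wnt4, the ligand whose loss lets the ovary take on testis features, read 307 and 275 CPM at E12.5 and 372 and 337 CPM at E13.5, and a log2 fold change of 0.28 ± 0.12 (adjusted p = 0.059) did not pass. Rspo1, which amplifies Wnt signals at the receptor, was called higher at 61.8 and 59.6 CPM at E12.5 and 92.9 and 92.5 CPM at E13.5 (log2 fold change 0.61 ± 0.14, adjusted p = 0.0025), but with the length term its value was 0.05 (adjusted p = 0.81), and with the GC term 0.30 (adjusted p = 0.068). Fst, the activin antagonist that acts downstream of Wnt4, read 110.0 and 103 CPM at E12.5 and 128 and 131 CPM at E13.5 and passed only with the length term (0.36, adjusted p = 0.029). Axin2, a feedback target that reports beta-catenin activity, was level at 57.9 and 58 CPM at E12.5 and 54.9 and 52.9 CPM at E13.5. The ubiquitin ligase Znrf3, which removes Wnt receptors and is needed in the testis, was lower at 76.4 and 79.7 CPM at E12.5 and 48 and 47.3 CPM at E13.5 (log2 fold change -0.71 ± 0.12, adjusted p = 0.0003), and its length-term value was -0.28 (adjusted p = 0.11).

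Further pre-granulosa genes outside the Wnt branch were called in either direction. Cdkn1b rose from 169.9 and 185 to 301 and 322 CPM (log2 fold change 0.81 ± 0.12, adjusted p = 7.8e-05; 0.88, adjusted p = 7e-05 with the length term). Irx3, an Iroquois homeobox gene of pre-granulosa cells, rose from 15.4 and 14.8 to 26 and 26.6 CPM, and its neighbour Irx5, at 2.64 and 2.12 CPM at E12.5 and 4.57 and 2.79 CPM at E13.5, did not pass the test. Msx1, which acts upstream of meiosis in the fetal ovary, rose from 217 and 221 to 359.9 and 314 CPM. The opposite was seen for Etv5, a transcription factor that responds to fibroblast growth factors, which fell from 15.9 and 16.8 to 4.27 and 3.42 CPM (log2 fold change -2.08 ± 0.23, adjusted p = 1.1e-05), a fall of the same size with the length term. Bmp2, a ligand of the fetal ovary, fell from 29.5 and 27.8 to 17.3 and 15.8 CPM, and Kitl, which encodes the ligand that germ cells need for survival, from 343 and 336 to 201 and 206 CPM, both in both fits. Runx1 and Lgr5, markers of the supporting lineage, were level in CPM and higher only with the length term (0.62, adjusted p = 0.0051 and 0.73, adjusted p = 0.00087), and Nr0b1 was level in CPM and lower only there (-0.65, adjusted p = 0.0024).

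The testis pathway was lower at E13.5, and this was the largest fall of any gonadal list. Of 23 genes tested from 26 listed, 16 were lower and 4 higher, against 22.1% and 23.8% of all genes, and 16 were lower and 3 higher in both fits. The median was -1.44, and it was -1.87 with the length term, so that the fall was not smaller once length was accounted for. Amh (chr10:80805243-80807648, mm10), the Sertoli cell hormone that removes the Muellerian ducts, stood at 10.7 and 7.86 CPM at E12.5 and 0.762 and 0.456 CPM at E13.5, a log2 fold change of -3.90 ± 0.54 (adjusted p = 5e-05). Cst9, a cystatin of fetal Sertoli cells, stood at 59 and 59 CPM at E12.5 and 3.05 and 5.93 CPM at E13.5 (log2 fold change -3.72 ± 0.25, adjusted p = 2.2e-07). For both genes even the highest E13.5 library lay far below the lowest E12.5 library.

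Sox9, the first target of Sry, fell less, from 34.9 and 35.3 to 18.1 and 19.5 CPM (log2 fold change -0.90 ± 0.13, adjusted p = 9.4e-05). Dhh, the Hedgehog ligand of Sertoli cells, fell from 6.02 and 5.43 to 0.406 and 0.684 CPM (log2 fold change -3.39 ± 0.33, adjusted p = 4.2e-06). Fgf9, which sustains Sox9 in the testis, fell from 9.08 and 8.84 to 2.24 and 2.4 CPM. Cyp26b1, Mmd2, Cbln4, Col9a3 and Ptgds, which mark fetal Sertoli cells, fell in both fits with log2 fold changes of -2.96, -2.67, -3.34, -2.42 and, for Ptgds, -1.86 (adjusted p = 5e-06) with the length term. Gdnf, the Sertoli factor that maintains spermatogonial stem cells, had 54 and 29 counts at E12.5 and 0 and 0 at E13.5, which makes it at least 12.2-fold lower when the floor of 3 counts per library is put in place of 0. Hsd17b3, the last enzyme of testosterone synthesis in the fetal testis, had 41 and 43 counts at E12.5 and 3 and 1 at E13.5.

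The exceptions were Gstm6, Aldh1a1, Mro and Defb19. Gstm6, a glutathione transferase, rose from 104 and 100.4 to 309 and 310.4 CPM (log2 fold change 1.60 ± 0.12, adjusted p = 7e-07). Aldh1a1, which makes retinoic acid and is found in fetal Sertoli cells as well as in other gonadal cells, rose from 112 and 89 to 189 and 171 CPM. Mro was higher by a log2 fold change of 0.40, and Defb19 was higher by 1.00, the latter only without the length term (0.25, adjusted p = 0.46). Sox8, the close relative of Sox9, read 2.59 and 3.66 CPM at E12.5 and 6.4 and 4.51 CPM at E13.5 and did not pass.

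The Y-linked genes changed with these. Ddx3y, a helicase gene (chrY:1260771-1286629, mm10), had 97 and 103 counts at E12.5 and 0 and 4 at E13.5. Kdm5d, a histone demethylase gene, had 78 and 44 counts at E12.5 and 0 and 0 at E13.5. Uty had 15 and 16 counts at E12.5 and 0 and 0 at E13.5. All 3 passed the filter and were lower in both fits, and with the floor of 3 counts per library Kdm5d was at least 17.9-fold and Uty at least 4.59-fold lower. Eif2s3y, with 15 and 7 counts at E12.5 and 5 and 0 at E13.5, Zfy2 and Uba1y were too low to be tested. How much of the fall of the testis pathway goes with Y-linked RNA was not tested, and since both E12.5 libraries hold that RNA neither could be left out.

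Another set of E12.5 female gonadal libraries in the series (E12.5_GC, 3 libraries) offers a level to set beside these. Its values are FPKM, that is fragments scaled to exon length and library size, normalised apart from the counts, so each gene was divided by Wt1 within its own library, per length, and no test was made between the sets. Wt1 itself fell with a log2 fold change of -1.48 ± 0.14 (adjusted p = 2.7e-06), and every E13.5 ratio is raised by that change. The gene lengths behind the FPKM are not known here, so a ratio may differ between the sets by the scaling of the gene alone. Rpl24, for example, read 456 and 394 CPM per kilobase of exon at E12.5 but 2.27, 1.95 and 2.23 FPKM in E12.5_GC. How far such scaling moves the ratios below was not tested. The ratio of Amh to Wt1 was 7.46% and 5.43% at the earlier stage, 1.48% and 0.88% a day later, and 0.611%, 1.31% and 1.03% in E12.5_GC. The ratio of Dhh to Wt1 was 1.59% and 1.42%, then 0.299% and 0.501%, and 0.207%, 0.15% and 0.216% in E12.5_GC. The ratio of Fgf9 to Wt1 was 2.27% and 2.19%, then 1.56% and 1.66%, and 0.739%, 0.825% and 1.19%. For these 3 genes the E12.5_GC ratios lay below those of both E12.5 libraries and within or below the range of E13.5, as far as ratios scaled differently can be compared.

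Foxl2, Cyp26b1 and Gdnf did not follow that order. The ratio of Foxl2 to Wt1 was 2.07% and 2.35% at E12.5, 14.2% and 13% at E13.5, and 41.1%, 40.5% and 18.3% in E12.5_GC. The E12.5 ratios were the lowest, but only those of E13.5 are scaled in the same way. For Cyp26b1 the E12.5_GC values of 4.19%, 1.88% and 1.81% spanned those of the E12.5 libraries, 2.75% and 3.22%, and lay above the 1.26% and 0.858% of E13.5. For Gdnf the ratio was 0.793% and 0.45% at E12.5, 0% in both E13.5 libraries, and 0.541%, 0.468% and 0.194% in E12.5_GC, which overlapped E12.5. Levels of the Y-linked genes in E12.5_GC were not analysed here.

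Of 19 Wnt ligands and R-spondins, 15 were tested, 4 were higher and 1 lower, and 2 were higher and 1 lower in both fits. The higher share of 26.7% was near the 23.8% of all genes. Wnt6 rose from 96.7 and 81.9 to 191 and 179 CPM (log2 fold change 1.05 ± 0.14, adjusted p = 4.9e-05) and Wnt2b rose as well (log2 fold change 0.53, adjusted p = 0.036), both in both fits. The Wnt2b call did not hold with DESeq2 (adjusted p = 0.064), without the filter on low counts (0.065), with a term for GC content (log2 fold change 0.28, adjusted p = 0.24) or with any 1 library left out (adjusted p = 0.079 to 0.27). Wnt5a, a ligand of the non-canonical branch made by gonadal stroma, fell from 33.9 and 35.9 CPM at E12.5 in both fits (log2 fold change -1.31 ± 0.16, adjusted p = 2.1e-05). Wnt5b was called higher by 0.40 on the log2 scale, a call that did not hold with the length term. Of the 20 receptors and co-receptors 0 were higher and 8 lower (40% against 22.1% of all genes), 4 of them in both fits. Fzd4 fell from 30.2 and 25.2 to 9.7 and 9.01 CPM and the co-receptor Lrp6 from 63.3 and 60.7 to 26.7 and 19.8 CPM, while Lgr4, a receptor of R-spondins, was level at 529 and 532 CPM at E12.5 and 473 and 479 CPM at E13.5. Of 22 antagonists, components and targets, 2 were higher (9.09%) and 9 lower (40.9% against 22.1% of all genes), and 1 and 7 in both fits. The beta-catenin gene Ctnnb1 fell from 272 and 257 to 157 and 158 CPM, its degradation factor Apc from 26.1 and 27.2 to 8.79 and 8.5 CPM, and the secreted antagonist Dkk1 from 4.26 and 4.35 to 0.61 and 0.684 CPM. Nkd2, a feedback inhibitor, rose from 24.3 and 20.5 to 36.4 and 39 CPM in both fits.

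In the BMP pathway 9 of 25 genes were lower, or 36% against 22.1% of all genes, and 2 were higher, with a median of -0.65 in either fit, and 7 were lower and 1 higher in both. Among ligands only Bmp2 passed, while Bmp4, at 11 and 9.34 CPM at E12.5 and 7.26 and 10.6 CPM at E13.5, Bmp7, at 16.7 and 17.1 CPM at E12.5 and 15.5 and 16.3 CPM at E13.5, and Bmp5 did not. Of the receptors, Bmpr1a fell from 53.9 and 54.3 to 27.1 and 27.6 CPM (log2 fold change -0.98 ± 0.20, adjusted p = 0.001), and Bmpr2 was lower with a log2 fold change of -1.43 without the length term and at -0.47 (adjusted p = 0.08) with it. Smad5, which carries the signal to the nucleus, fell from 312 and 297 to 145 and 129 CPM (log2 fold change -1.16 ± 0.12, adjusted p = 7.2e-06). The inhibitor Smad7 also fell in both fits, with a log2 fold change of -1.09. The target Id1, at 76.3 and 76.3 CPM at E12.5 and 88.2 and 83 CPM at E13.5, did not pass, and neither did its relative Id3, at 2217 and 2269 CPM at E12.5 and 2626 and 2684 CPM at E13.5. Id2 was called higher at 287 and 290.0 CPM at E12.5 and 414 and 399.9 CPM at E13.5 (log2 fold change 0.50 ± 0.11, adjusted p = 0.0022), which did not hold with the length term (0.10, adjusted p = 0.46).

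For Amh, inhibin and activin signalling, 8 of 16 genes were lower (50% against 22.1% of all genes) and 3 higher (18.8% against 23.8%), and 7 and 0 in both fits. The Amh receptor Amhr2 was called higher, at 681 and 691 CPM at E12.5 and 1152 and 1101 CPM at E13.5 (log2 fold change 0.72 ± 0.14, adjusted p = 0.0008), while its ligand fell as given above. With the length term the value of Amhr2 was 0.18 (adjusted p = 0.27). The inhibin alpha gene Inha was higher at 118 and 122 CPM at E12.5 and 238 and 254 CPM at E13.5 and did not hold either (0.33, adjusted p = 0.17). Inhbb, the beta-B subunit of activin and inhibin, fell from 37.2 and 37.8 to 23 and 24.2 CPM in both fits. The receptors Acvr2b and Acvr1 fell with log2 fold changes of -1.31 and -1.15, also in both fits.

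**Figure D3:**
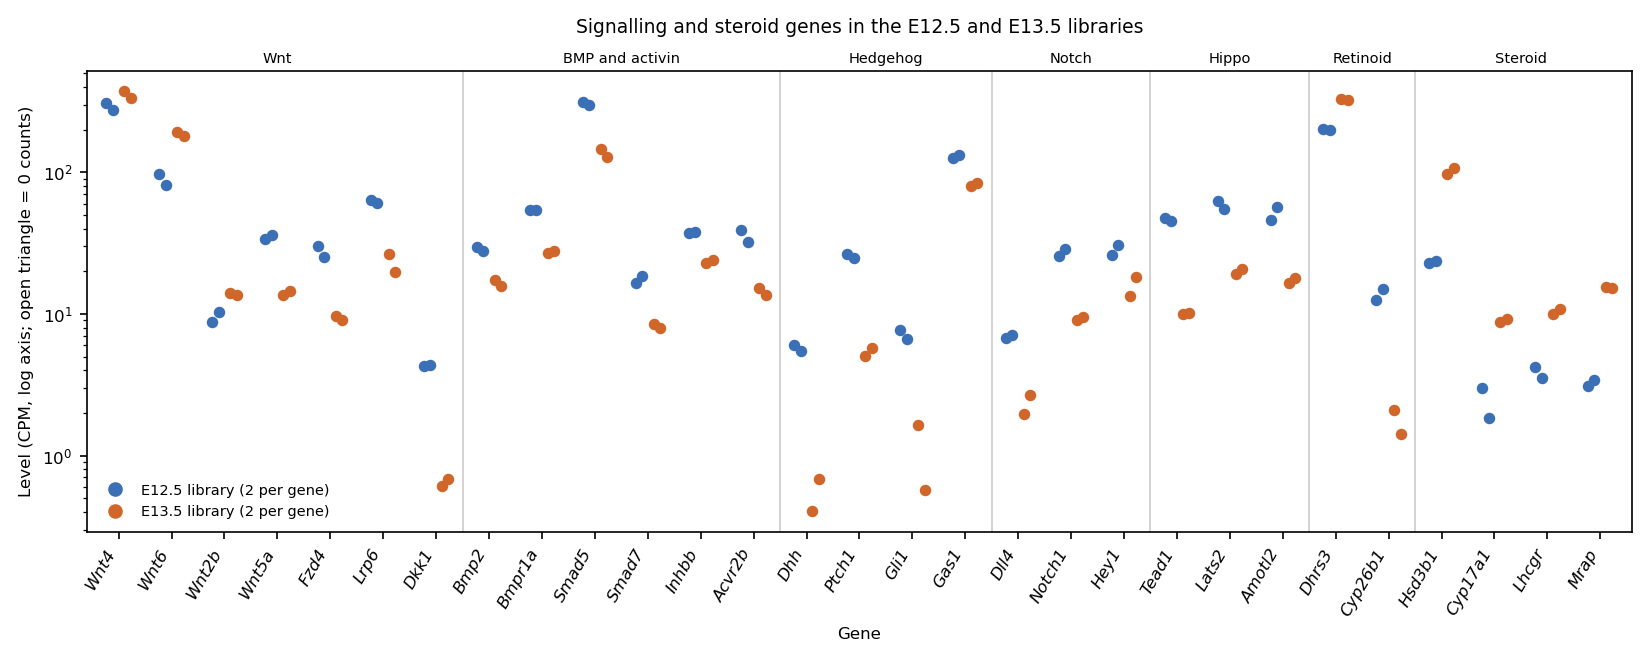
Levels in CPM (log axis) of genes of the Wnt, BMP and activin, Hedgehog, Notch, Hippo, retinoid and steroid groups in the 2 libraries of E12.5 (blue) and of E13.5 (orange). Dhh, Ptch1 and Gli1 lie lower at E13.5, as do Tead1 and Notch1, whereas Hsd3b1, Cyp17a1 and Mrap lie higher.

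Hedgehog signalling showed its ligand and its targets lower together. Of 13 genes tested 7 were lower (53.8% against 22.1% of all genes) and 0 higher, the same count in both fits, with a median of -0.65 (-0.55 with the length term). Besides Dhh, the receptor and target Ptch1 fell from 26.5 and 24.9 to 5.08 and 5.76 CPM (log2 fold change -2.25 ± 0.30, adjusted p = 3.7e-05). Gli1, the transcription factor most often read as the output of the pathway, fell from 7.64 and 6.67 to 1.63 and 0.57 CPM (log2 fold change -2.67 ± 0.37, adjusted p = 5.2e-05). Gli2, Gli3, Cdon and Gas1 were lower in both fits, with log2 fold changes of -1.16, -1.08, -0.97 and -0.65. The signal transducer Smo was level at 88.9 and 88.5 CPM at E12.5 and 89.4 and 93.8 CPM at E13.5, and Shh had no count in any of the 4 libraries.

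Notch and Hippo genes were mostly lower, with fewer calls once length was accounted for. Of 21 Notch genes 12 were lower (57.1% against 22.1% of all genes) and 1 higher (4.76% against 23.8%), and 6 and 0 in both fits. Notch1 fell from 25.5 and 28.7 to 9.09 and 9.47 CPM and the endothelial ligand Dll4 from 6.81 and 7.11 to 1.98 and 2.68 CPM. Hes1, a target, was higher at 26.8 and 24.8 CPM at E12.5 and 37.4 and 43.9 CPM at E13.5, with a length-term value of 0.13 (adjusted p = 0.59), whereas the target Hey1 fell from 26.2 and 30.6 to 13.4 and 18.2 CPM in both fits. Of 25 Hippo genes 16 were lower (64% against 22.1% of all genes) and 0 higher, 11 of them in both fits. Their median exon length was 6392 bases. In the group of all genes from 5897 to 7260 bases 33.3% were lower. The median log2 fold change of the Hippo list was -0.78, and -0.37 with the length term. Tead1, a DNA-binding partner of Yap1, fell from 47.3 and 45.4 to 9.91 and 10.2 CPM (log2 fold change -2.20 ± 0.19, adjusted p = 2.1e-06), the kinase gene Lats2 from 62.9 and 54.8 to 19 and 20.8 CPM, and Amotl2 from 46 and 56.9 to 16.4 and 17.9 CPM. The target Cyr61 was level at 705 and 693 CPM at E12.5 and 637 and 690.4 CPM at E13.5 and the target Ctgf fell from 12.9 and 10.7 to 7.11 and 6.56 CPM, both without a length and so in the first fit alone.

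Of 21 retinoic acid genes 6 were higher (28.6% against 23.8% of all genes) and 2 lower (9.52% against 22.1%), and 5 and 1 in both fits. Cyp26b1 was the lower one of both fits, as given above. Dhrs3, which turns retinal back into retinol, rose from 202 and 199 to 331 and 325 CPM (log2 fold change 0.71 ± 0.11, adjusted p = 0.00011). Aldh1a2, the main source of retinoic acid in the mesonephros, read 94.9 and 96.5 CPM at E12.5 and 98.6 and 112 CPM at E13.5 and did not pass in that fit (-0.31, adjusted p = 0.046 with the length term). Crabp1 was called higher at 9.5 and 10.1 CPM at E12.5 and 20.8 and 25.4 CPM at E13.5, which did not hold with the length term (0.39, adjusted p = 0.14). Rbp4, the blood carrier of retinol, rose from 1.67 and 1.14 to 47.9 and 55.2 CPM and is made mainly by the liver, so it belongs with the liver genes below. Of the receptors, Rara, at 31.8 and 38.2 CPM at E12.5 and 38.5 and 38.6 CPM at E13.5, did not pass and Rarb was lower with a log2 fold change of -1.03 in the first fit alone.

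Hox genes, which give position along the body axis, were tested for 27 of 39. There were 7 lower (25.9% against 22.1% of all genes) and 0 higher, and the same 7 were lower in both fits. In the fit with the length term 16 were lower. Their exons were short, at a median of 2574 bases against 4135 for all genes tested. Hoxd8 fell from 30.7 and 31 to 21 and 18 CPM, Hoxb9 from 5.47 and 6.82 to 3.61 and 3.02 CPM and Hoxd3 from 6.53 and 5.24 to 3.61 and 3.19 CPM. The Hoxd3 call did not hold with DESeq2 (adjusted p = 0.079) or with any 1 library left out (0.06 to 0.23), and those of Hoxb9 and Hoxd8 did not hold without the second library of E12.5 (0.15 and 0.052) or of E13.5 (0.11 and 0.1). Members with higher levels, such as Hoxd9 at 62 and 54.8 CPM at E12.5 and 48.3 and 46.4 CPM at E13.5 and Hoxc6 at 37.8 and 35.6 CPM at E12.5 and 46.5 and 42.6 CPM at E13.5, did not pass the test in the first fit.

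Of 17 steroidogenic genes tested, 5 were higher (29.4% against 23.8% of all genes) and 3 lower (17.6% against 22.1%), shares near those of all genes, and 5 and 2 in both fits, with a median of 0.00. Hsd3b1, which completes the ring change that makes progesterone and androgens, rose from 22.7 and 23.6 to 97.5 and 107 CPM (log2 fold change 2.14 ± 0.13, adjusted p = 8e-08). Cyp17a1, which opens the androgen branch, rose from 3.01 and 1.83 to 8.74 and 9.24 CPM (log2 fold change 1.88 ± 0.25, adjusted p = 3.4e-05). The luteinizing hormone receptor gene Lhcgr rose from 4.22 and 3.51 to 9.91 and 10.8 CPM and Mrap, an accessory protein of the corticotropin receptor, from 3.1 and 3.41 to 15.4 and 15.3 CPM. Fdxr, which feeds electrons to the mitochondrial enzymes, rose from 98.9 and 98.7 to 198 and 178 CPM.

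Other steps of the same pathway did not rise. Star, which brings cholesterol into mitochondria, read 40.9 and 37.8 CPM at E12.5 and 28.5 and 38.3 CPM at E13.5 and did not pass. Cyp11a1, the first enzyme, was lower at 4.17 and 3.75 CPM at E12.5 and 2.95 and 2.4 CPM at E13.5 without the length term alone. Insl3, the hormone of fetal Leydig cells, read 0.417 and 0.494 CPM at E12.5 and 0.254 and 0.456 CPM at E13.5, too low for a firm statement, and Ren1, a gene of steroidogenic and vessel cells, fell from 10.3 and 10.3 to 2.64 and 3.31 CPM (log2 fold change -1.80 ± 0.35, adjusted p = 0.00067). Cyp19a1, the aromatase gene, was at most 0.695 CPM in the 4 libraries. Of 22 cholesterol genes 9 were higher (40.9% against 23.8% of all genes) and 5 lower (22.7% against 22.1%), and 6 and 4 in both fits. Fdps rose from 155 and 165 to 293 and 289.8 CPM, while Sqle fell from 45.9 and 43.2 to 26.3 and 28.2 CPM.

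Of 22 interstitial and stromal genes tested 5 were higher (22.7% against 23.8% of all genes) and 8 lower (36.4% against 22.1%), and 4 and 4 in both fits. Mfap4, an elastic fibre glycoprotein, rose from 42.7 and 42.8 to 126 and 134 CPM (log2 fold change 1.60 ± 0.12, adjusted p = 4.9e-07). The proteoglycan genes Bgn, from 128 and 122 to 193 and 170.0 CPM, and Dcn, from 56.4 and 59.5 to 94 and 93.6 CPM, rose in both fits. The growth factor receptor genes of stroma fell, Pdgfra from 45.6 and 47.1 to 18 and 18.7 CPM (log2 fold change -1.34 ± 0.16, adjusted p = 1.4e-05) and Pdgfrb from 18.6 and 22.3 to 11.7 and 11.9 CPM. The contractile gene Tagln fell from 19.7 and 19 to 7.26 and 8.21 CPM, while Acta2 was higher at 72.3 and 76.1 CPM at E12.5 and 104 and 115 CPM at E13.5 with a length-term value of 0.09 (adjusted p = 0.71).

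Collagen genes, which are long, changed their balance of calls with the length term. Of 34 collagen genes, with a median of 7648 exon bases, 2 were higher and 14 lower in the first fit, and 6 were higher and 6 lower with the length term. Col1a1 was level at 127 and 149.7 CPM at E12.5 and 136 and 131 CPM at E13.5. Col1a2 and Col3a1 were at -0.43 and -0.22 on the log2 scale in the first fit and at 0.30 (adjusted p = 0.038) and 0.36 (adjusted p = 0.016) in the second, so that their direction turned and no direction is given for them. Col6a1 and Col6a2 rose in both fits, from 90.8 and 101 to 158 and 142 CPM and from 89.6 and 88.1 to 159 and 132 CPM. Col18a1, Col15a1 and Col27a1 fell in both fits, with log2 fold changes of -0.65, -1.28 and -1.50.

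Of 17 surface epithelium genes tested 5 were higher (29.4% against 23.8% of all genes) and 7 lower (41.2% against 22.1%), and 4 and 6 in both fits. The keratin genes Krt7, Krt8 and Krt19 rose in both fits, with Krt8 going from 88.9 and 88 to 179 and 189 CPM (log2 fold change 1.06 ± 0.11, adjusted p = 7.7e-06). Nkain4 rose from 12.7 and 13.4 to 38.4 and 40.4 CPM. The transcription factor genes Bnc1 and Bnc2 fell with log2 fold changes of -1.31 and -1.41, and Podxl, a surface sialomucin, from 313 and 316 to 181 and 178 CPM. Upk3b, a mesothelial marker, read 122 and 139.9 CPM at E12.5 and 149 and 164 CPM at E13.5 and did not pass. Of 14 genes of the mesonephros and ducts 4 were higher (28.6% against 23.8% of all genes) and 1 lower (7.14% against 22.1%). In both fits 3 were higher and 1 lower. Pax2 was at or below 1.2 CPM in the 4 libraries, and Calb1 rose from 27.6 and 28.4 to 57.5 and 38.4 CPM, a call that did not hold without the first E13.5 library (adjusted p = 0.051).

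Genes through which somatic cells act on germ cells were lower. Of 17 tested 10 were lower (58.8% against 22.1% of all genes) and 0 higher, and 6 were lower in both fits, with a median of -0.62 (-0.60 with the length term). Besides Kitl, Bmp2, Wnt5a and Fgf9, the chemokine gene Cxcl12, which guides migrating germ cells, fell from 37.2 and 51 to 18.7 and 20.6 CPM (log2 fold change -1.16 ± 0.17, adjusted p = 8.4e-05). The adhesion genes Cdh11 and Ncam1 were lower without the length term alone, with -0.31 (adjusted p = 0.19) and 0.00 (adjusted p = 1) in the second fit. Igf1 was level at 83 and 82 CPM at E12.5 and 82.7 and 75.6 CPM at E13.5, and passed as higher with the length term alone (0.53, adjusted p = 0.0029).

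Germ cell genes were low at both stages after the depletion step, and were higher at E13.5. Summed over 27 listed genes they reached 59.3 and 57.5 CPM at E12.5 and 132 and 129 CPM at E13.5. Of 23 tested 13 were higher (56.5% against 23.8% of all genes) and 1 lower (4.35% against 22.1%), 9 of them higher in both fits. Dazl, an RNA-binding protein of licensed germ cells, rose from 3.94 and 4.05 to 15.3 and 14 CPM (log2 fold change 1.87 ± 0.19, adjusted p = 6.2e-06). Pou5f1, the pluripotency factor of primordial germ cells, rose from 3.06 and 1.58 to 12.7 and 17.2 CPM (log2 fold change 2.68 ± 0.34, adjusted p = 2.4e-05). Tex19.1 and Sall4 rose by log2 fold changes of 2.73 and 2.16 in the first fit and were called in the second as well. Ddx4, which germ cells of this age express strongly, was at 0.602 and 1.19 CPM at E12.5 and 2.08 and 1.65 CPM at E13.5, and its call did not hold with the length term (0.85, adjusted p = 0.12), with DESeq2 (adjusted p = 0.066), with the 4 libraries alone in the fit (0.11), or without the first library of E12.5 (0.31) or of E13.5 (0.16). Nanos2, a gene of male germ cells, had no count in any of the 4 libraries.

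Some meiosis genes were higher at E13.5, at low levels. Of 31 tested 11 were higher (35.5% against 23.8% of all genes) and 0 lower, and 9 were higher in both fits. The median was 0.69. It was 0.46 with 7 genes, of at most 3 counts in each library of 1 stage, set at the bound that the floor of 3 counts allows. Stra8 rose from 0.695 and 0.296 to 3.91 and 6.05 CPM (log2 fold change 3.29 ± 0.45, adjusted p = 4.7e-05). Smc1b, a cohesin subunit of meiotic chromosomes, rose from 2.27 and 2.52 to 15 and 8.9 CPM (log2 fold change 2.32 ± 0.28, adjusted p = 1.9e-05) and M1ap from 1.67 and 1.04 to 7.47 and 7.41 CPM. Hormad1, which marks unpaired chromosome axes, had 0 and 0 counts at E12.5 and 15 and 20 at E13.5. The synaptonemal complex gene Sycp3, at 1.76 and 1.14 CPM at E12.5 and 1.73 and 1.37 CPM at E13.5, and the recombinase gene Dmc1, at 1.58 and 1.04 CPM at E12.5 and 1.93 and 1.14 CPM at E13.5, did not pass. At E16.5, when oocytes are in meiotic prophase, the same libraries' model gave Sycp3 at 36 and 55.4 CPM and Stra8 at 6.97 and 10.1 CPM. Germ cells that escaped depletion and germ cell transcripts in somatic cells cannot be told apart here.

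Liver-secreted proteins led the rises. Of 35 genes tested from 38, 30 were higher and 2 lower, against 23.8% and 22.1% of all genes, and 29 and 2 in both fits. The median was 4.54, and 3.90 with the length term. It was 4.06 with 10 genes, of at most 3 counts in each library of 1 stage, at their bound. Alb, the albumin gene (chr5:90460897-90476602, mm10), was at 1.02 and 0.543 CPM at E12.5 and 47.5 and 42.1 CPM at E13.5 (log2 fold change 5.82 ± 0.38, adjusted p = 3.1e-07). Afp, the fetal albumin made by liver and yolk sac, was at 1.44 and 1.04 CPM at E12.5 and 45.7 and 56.5 CPM at E13.5 (log2 fold change 5.36 ± 0.32, adjusted p = 8.6e-08). Apoa1 rose from 0.649 and 0.543 to 37.4 and 34.8 CPM, Ttr from 0.278 and 0.148 to 9.35 and 10.5 CPM and Serpina6, the corticosteroid-binding globulin, from 0.232 and 0.494 to 22.8 and 23.4 CPM. Kng1, Serpina1b and Rbp4 had log2 fold changes of 5.58, 5.43 and 5.19. These 8 genes, with Serpinf2, a plasmin inhibitor that the liver also makes (5.21), and the mast cell gene Cma1 below, were the 10 largest rises among genes called in both fits, at 5 CPM or more and without overlap. The Serpina1 copies are nearly identical, so the split of reads among them is uncertain.

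Both E13.5 libraries held this RNA at close levels. Summed over the list it was lower at E16.5, at 92.9 and 88.9 CPM, and higher at P6w, at 715 and 729 CPM. At E16.5 Alb was at 1.17 and 0.245 CPM, Afp at 0.866 and 0.245 CPM and Apoa1 at 1.73 and 1.35 CPM, all below the E13.5 libraries. Apoa4 and Fetub were the 2 lower members. Serpinc1, at 8.01 and 7.36 CPM at E12.5 and 5.99 and 5.59 CPM at E13.5, Cps1, a urea cycle enzyme at 0 to 0.305 CPM, and Apoc3 did not pass. Itih1, Itih4 and Plg were too low to be tested. How much of any other rise goes with liver RNA was not tested. Genes that liver and gonad both express, such as Trf, at 21.1 and 20.7 CPM at E12.5 and 81.5 and 98.8 CPM at E13.5, and Apoc1, at 18.9 and 17.7 CPM at E12.5 and 59.4 and 66 CPM at E13.5, rose less.

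The proximal promoters of Alb and Afp are shown because these neighbouring genes are the reference markers of the liver block and share a short motif. RefSeq gave promoters on GRCm38.p6 for 27 of the 38 liver genes and for 12475 of all genes tested. The letters GTTAAT, one arm of the palindrome bound by the liver and kidney factor HNF1, occur on either strand of the 250 bases before the start in 10 of the 27 (37%), against 659 of the 12475 (5.28%), 1 of 16 pre-granulosa genes and 0 of 15 testis pathway genes. AGGTCA, the core letters bound by many nuclear receptors, occurs in 8 of the 27 (29.6%), against 13.7% of all, 1 of 16 and 1 of 15. These are letter matches, not binding sites. The promoters of the liver genes Apoa1 and Rbp4, which are not shown, hold no GTTAAT. The 250 bases upstream of each gene follow, 5′ to 3′ on the plus strand, with GTTAAT in capitals.
Alb, chr5:90460620-90460869: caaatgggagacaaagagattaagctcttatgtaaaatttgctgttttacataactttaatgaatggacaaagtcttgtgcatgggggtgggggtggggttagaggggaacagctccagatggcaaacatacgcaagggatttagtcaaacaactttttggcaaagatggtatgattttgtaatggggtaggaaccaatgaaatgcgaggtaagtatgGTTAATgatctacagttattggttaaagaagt
Afp, chr5:90490464-90490713: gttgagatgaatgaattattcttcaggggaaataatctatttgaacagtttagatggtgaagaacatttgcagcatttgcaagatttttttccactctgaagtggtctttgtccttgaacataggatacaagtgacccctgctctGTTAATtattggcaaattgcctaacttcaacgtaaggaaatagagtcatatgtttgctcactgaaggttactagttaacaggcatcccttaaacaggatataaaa

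Red cell genes rose with the liver block. The 27 genes in the table, all tested, summed to 16055 and 14675 CPM at E12.5 and 35974 and 33354 CPM at E13.5. Of them 19 were higher (70.4% against 23.8% of all genes) and 1 lower (3.7% against 22.1%), with the same counts in both fits. The adult globin genes rose: Hbb-bs went from 654 and 552 to 4586 and 3678 CPM (log2 fold change 2.78 ± 0.21, adjusted p = 5.2e-07) and Hba-a1 from 1757 and 1486 to 5271 and 4888 CPM (log2 fold change 1.65 ± 0.17, adjusted p = 7.5e-06). Embryonic Hbb-y, at 10184 and 9356 CPM at E12.5 and 16949 and 15957 CPM at E13.5, did not pass (log2 fold change 0.75 ± 0.78, adjusted p = 0.45), but passed without the filter on low counts (0.73, adjusted p = 1.1e-09) and with the 4 libraries alone in the fit (0.71, adjusted p = 1.6e-08). Embryonic Hbb-bh1 fell from 61.9 and 58.9 to 22.1 and 17.4 CPM (log2 fold change -1.61 ± 0.19, adjusted p = 2.4e-05). Globin copies share sequence, so reads may be split among them. The transcription factor genes Klf1 and Gata1 rose from 25.8 and 28 to 156 and 164 CPM and from 8.25 and 9.88 to 40.6 and 37.8 CPM, and Alas2, the first enzyme of haem synthesis in red cells, from 93.6 and 102 to 269 and 287 CPM (log2 fold change 1.51 ± 0.12, adjusted p = 1.2e-06).

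**Figure D4:**
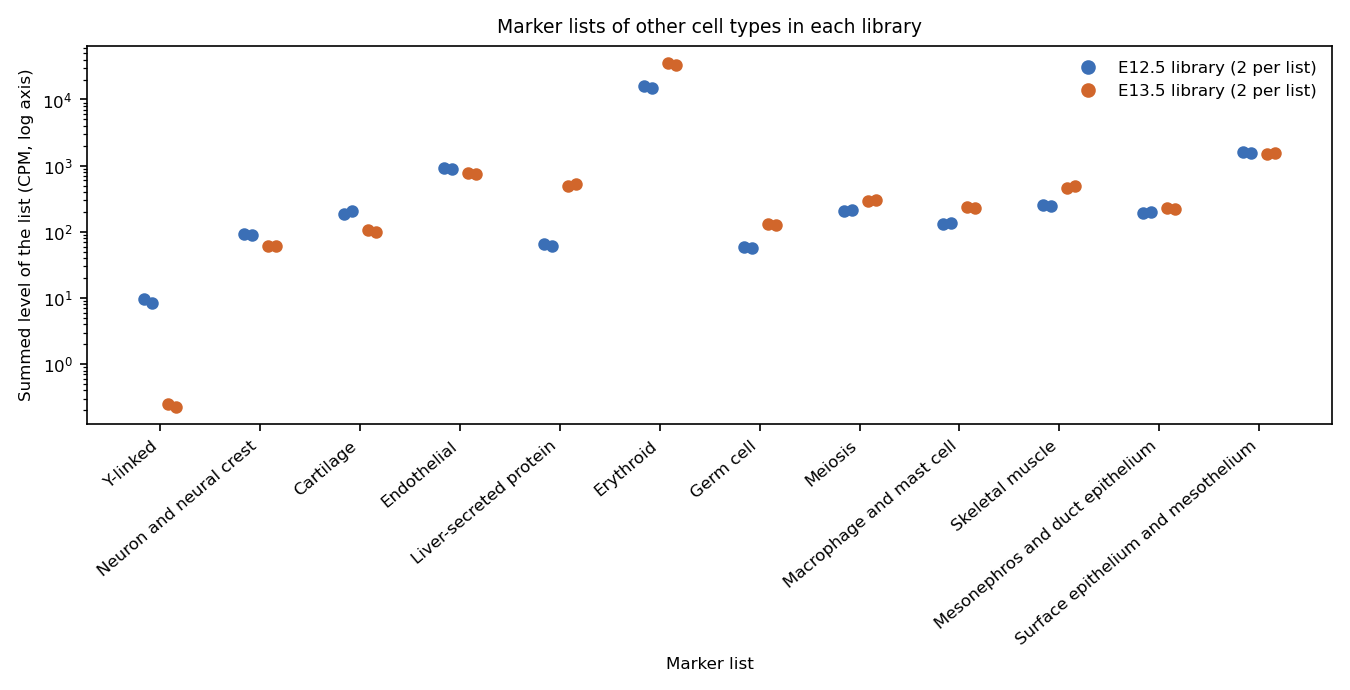
Summed level in CPM (log axis) of marker lists of other cell types and of the Y-linked genes in the 2 libraries of E12.5 (blue) and of E13.5 (orange). The liver list rises from 65.7 and 61.1 to 499 and 524 CPM and the germ cell list from 59.3 and 57.5 to 132 and 129 CPM, and the Y-linked genes fall to 0.254 and 0.228 CPM.

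Endothelial genes were lower. Of 26 tested 16 were lower (61.5% against 22.1% of all genes) and 2 higher (7.69% against 23.8%), and 13 and 1 in both fits. The median was -0.72 (-0.79 with the length term). Cdh5, the cadherin of vessel junctions, fell from 27.5 and 33.4 to 14.9 and 17.1 CPM (log2 fold change -0.93 ± 0.20, adjusted p = 0.0014). The receptor genes Kdr, Flt1 and Tek fell with log2 fold changes of -1.34, -1.56 and -1.76. Etv2, which starts the endothelial program, and Sox7 fell further, from 5.98 and 5.29 to 0.559 and 0.627 CPM and from 5.51 and 8.3 to 1.47 and 0.57 CPM. Ramp2, an adrenomedullin co-receptor, went the other way, from 176 and 161 to 286 and 279 CPM in both fits.

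Immune cell genes were mostly higher, with fewer calls once length was accounted for. Of 23 macrophage and mast cell genes 14 were higher (60.9% against 23.8% of all genes) and 3 lower (13% against 22.1%), and 6 and 1 in both fits. The general leukocyte gene Ptprc was level at 1.3 and 2.47 CPM at E12.5 and 2.24 and 1.48 CPM at E13.5. The macrophage genes Fcer1g, Tyrobp and C1qc rose in both fits, C1qc from 8.01 and 9.59 to 17.3 and 20.8 CPM, whereas Csf1r, the macrophage growth factor receptor, was level at 18.3 and 19.3 CPM at E12.5 and 19.3 and 14.7 CPM at E13.5 and Adgre1 was lower at 1.67 and 2.22 CPM at E12.5 and 0.864 and 0.285 CPM at E13.5. The mast cell protease genes Cma1, from 0.463 and 0.346 to 18.2 and 10.4 CPM (log2 fold change 5.12 ± 0.34, adjusted p = 2.1e-07), and Tpsb2, from 0.0463 and 0.0494 to 4.72 and 1.65 CPM, rose in both fits, with the first E13.5 library above the second in each.

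Some RNA of neural crest and cartilage was mainly in the E12.5 libraries. Sox10, the factor of neural crest and glia, had 101 and 102 counts at E12.5 and 4 and 0 at E13.5. Th, the first enzyme of catecholamine synthesis, fell from 3.1 and 2.77 to 0.457 and 0.513 CPM. Among 21 neural genes 6 were lower (28.6% against 22.1% of all genes) and 2 higher (9.52% against 23.8%), and 6 and 0 in both fits. Of 14 cartilage genes 8 were lower (57.1% against 22.1% of all genes) and 0 higher, 6 of them in both fits. Col2a1, the main collagen of cartilage, fell from 10.4 and 5.53 to 0.457 and 0.399 CPM (log2 fold change -4.19 ± 0.50, adjusted p = 1.7e-05), with the first E12.5 library well above the second. Sox6 and Hapln1 fell with log2 fold changes of -1.54 and -1.51. Some of these genes, Sox9 and Col9a3 among them, are shared with fetal Sertoli cells and stand in both lists.

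Of 14 skeletal muscle genes 6 were higher (42.9% against 23.8% of all genes) and 0 lower, and 3 in both fits. Myog, the factor of differentiating muscle cells, was at 0.232 and 0.642 CPM at E12.5 and 1.47 and 2.4 CPM at E13.5, and its call did not hold with the length term (1.44, adjusted p = 0.12), without the first E12.5 library (adjusted p = 0.19) or without the second E13.5 library (0.12). Tnni1 rose from 172 and 167 to 342 and 361 CPM and Myh8 from 15.2 and 15.3 to 29.4 and 31.5 CPM in both fits, at levels far above those of Myod1, which was at most 1.14 CPM.

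Genes of the cell cycle were lower for mitosis and level for DNA synthesis. Of 25 mitosis genes 16 were lower (64% against 22.1% of all genes) and 2 higher (8% against 23.8%), and 14 and 1 in both fits. The median was -0.41 (-0.57 with the length term). Mki67, the proliferation antigen, fell from 114 and 107 to 43.4 and 38.2 CPM (log2 fold change -1.44 ± 0.21, adjusted p = 6.7e-05) and the kinetochore motor gene Cenpe from 114 and 104 to 31.8 and 30.7 CPM (log2 fold change -1.80 ± 0.14, adjusted p = 1.1e-06). Cenpf and Anln fell in both fits with log2 fold changes of -1.69 and -1.26, and Top2a, which untangles DNA, went from 317 and 299.9 to 161 and 148 CPM. Cdk1, however, was level at 122 and 121 CPM at E12.5 and 114 and 129 CPM at E13.5, and Birc5 rose from 83.9 and 83.1 to 117 and 126 CPM. Of 30 replication genes 7 were lower (23.3% against 22.1% of all genes) and 4 higher (13.3% against 23.8%), and 2 and 3 in both fits. Mcm4 and Orc1 fell with log2 fold changes of -0.84 and -0.69, the latter not without the second E12.5 library (adjusted p = 0.064), and Mcm3 read 333 and 329.9 CPM at E12.5 and 311 and 316 CPM at E13.5 and did not pass. Of 7 cyclin-dependent kinase inhibitors 4 were higher (57.1% against 23.8% of all genes), Cdkn1a and Cdkn1b in both fits, with Cdkn1a going from 112 and 128 to 208 and 230.3 CPM. Their median exon length was 2039 bases, and in the group of all genes from 1456 to 2153 bases 47.7% were higher.

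Of 24 immediate early genes, which cells switch on within minutes of a stimulus or of handling, 11 were lower (45.8% against 22.1% of all genes), 1 was higher and 12 were not called, with 11 lower and 0 higher in both fits. Atf3 fell from 159 and 159 to 33.9 and 37.8 CPM (log2 fold change -2.15 ± 0.14, adjusted p = 1.4e-07), Nr4a1 from 191 and 232 to 45.7 and 48.7 CPM (log2 fold change -2.17 ± 0.29, adjusted p = 3.9e-05) and Egr3 from 16.4 and 15.8 to 1.88 and 2.17 CPM. Egr1 and Fosb were lower with log2 fold changes of -1.18 and -1.32. Fos itself did not pass in the first fit, at 1162 and 1265 CPM at E12.5 and 1030.3 and 1083 CPM at E13.5, and neither did Junb and Ier2, while with the length term Fos was lower (-0.62, adjusted p = 0.019). Of 14 heat shock genes 2 were higher (14.3% against 23.8% of all genes) and 4 lower (28.6% against 22.1%), and 1 and 3 in both fits. Hsph1 fell from 141 and 139 to 70.6 and 72.4 CPM and Hspa1b rose from 30.9 and 33.4 to 54.6 and 60.1 CPM in both fits.

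The most uniform rises were in short, abundant transcripts. All 78 cytoplasmic ribosomal protein genes were higher, with a median of 0.95, and 36 of 37 subunits of respiratory complex I and 37 of 40 of complexes II to V, with medians of 1.02 and 0.88. Their exon lengths had medians of 1776, 1569 and 1870 bases against 4135 for all genes, and 47.1% of the group of shortest genes overall were higher too. With the length term 44, 21 and 21 of them were higher and 0 lower, at medians of 0.41, 0.32 and 0.33. Rps29 went from 99.5 and 98.3 to 255 and 295 CPM (log2 fold change 1.48 ± 0.13, adjusted p = 2.5e-06, and 0.63, adjusted p = 0.0025 with the length term). Ndufb4, a complex I subunit, went from 64.3 and 61.7 to 162 and 162 CPM (log2 fold change 1.36 ± 0.12, adjusted p = 2.3e-06, and 0.80, adjusted p = 0.00015) and Cox8a from 205 and 188 to 462 and 495 CPM. The summed level of ribosomal protein genes was 64553 and 58252 CPM at E12.5 and 119324 and 117215 CPM at E13.5. These sums are not shares of a library, because CPM are scaled to the normalised library size. Over all genes tested, CPM summed to 903781 and 891952 at E12.5 and to 1130268 and 1126051 at E13.5.

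**Figure D5:**
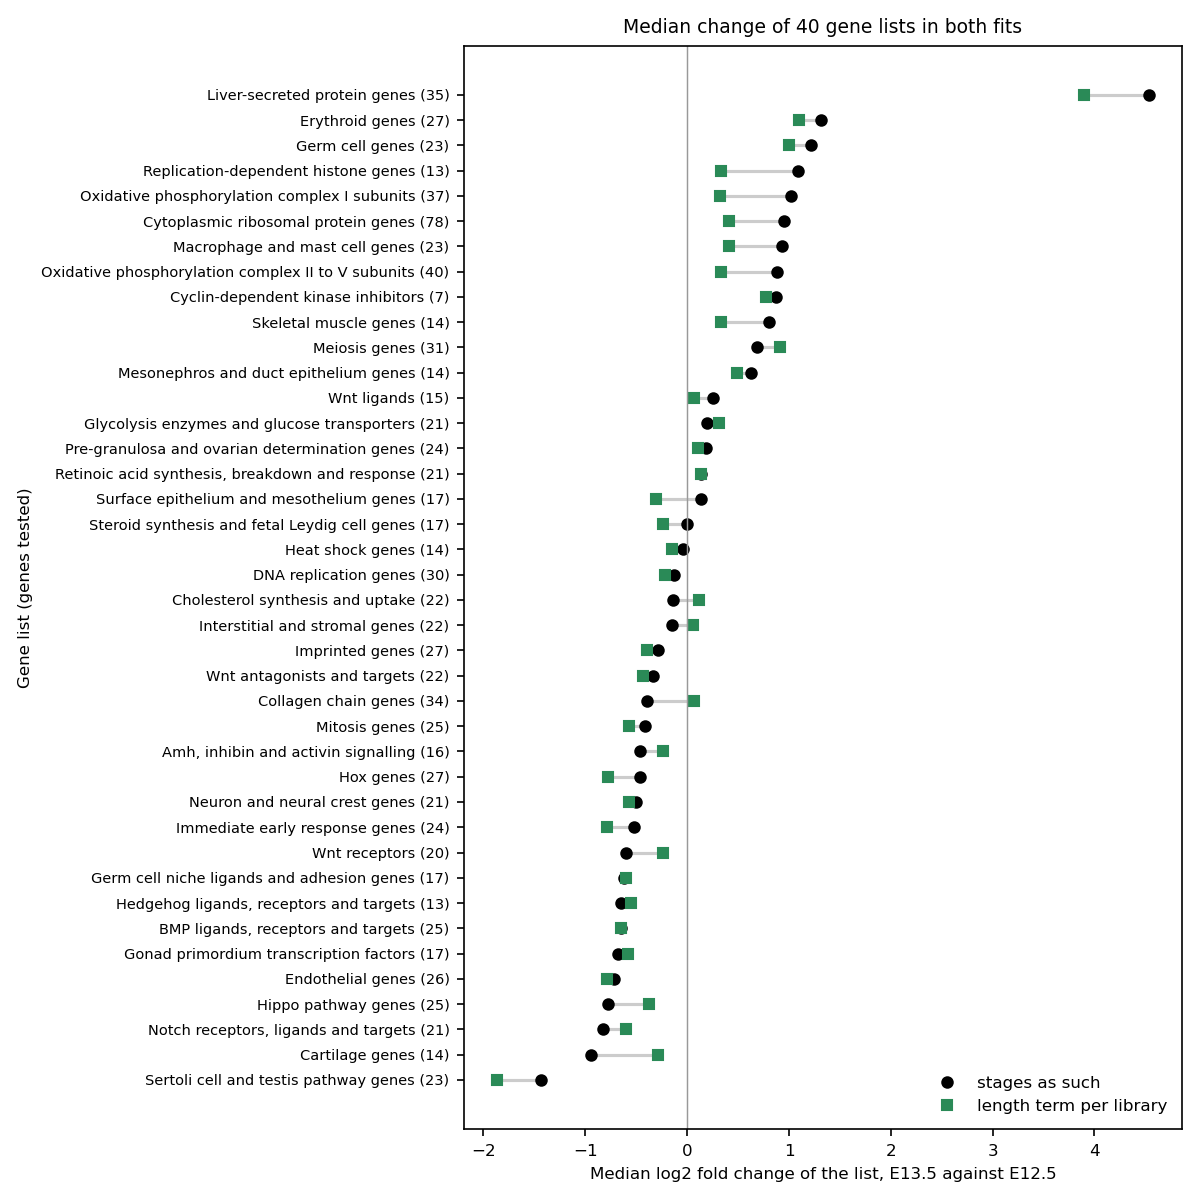
Median log2 fold change at E13.5 against E12.5 (x axis) of 40 gene lists, with the number of genes tested in brackets, in the first fit (circles) and with the length term (squares); the Y-linked list is left out. Liver genes lead at 4.54 and 3.90 and the testis pathway stands last at -1.44 and -1.87, while ribosomal proteins move from 0.95 to 0.41 and cartilage genes from -0.94 to -0.29 between the fits.

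Of 21 glycolysis genes 6 were higher (28.6% against 23.8% of all genes), 1 was lower and 14 were not called, with 5 higher and 0 lower in both fits. Aldoc rose from 44.7 and 45.7 to 99.7 and 97.6 CPM and Aldoa from 761 and 765 to 1281 and 1468 CPM, while Pkm and Eno1 were level in the first fit. Of 13 replication-dependent histone genes tested 6 were higher (46.2% against 23.8% of all genes) and 0 lower, and 2 in both fits. Their median exon length was 1156 bases, and in the group of all genes up to 1456 bases 47.1% were higher, a share near theirs. Their transcripts mostly lack a poly(A) tail, which the library preparation selected for. Hist1h2ac rose from 2.18 and 2.42 to 8.99 and 5.25 CPM. Hist1h4i was at a log2 fold change of 0.68 in the first fit and at -0.16 (adjusted p = 0.5) in the second, and no direction is given for it.

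Imprinted genes, expressed from one parental copy and linked to fetal growth, had 13 of 27 lower (48.1% against 22.1% of all genes) and 5 higher (18.5% against 23.8%), and 12 and 3 in both fits. Plagl1, a regulator of several of the others, fell from 61.9 and 70.9 to 20.1 and 15.6 CPM (log2 fold change -1.89 ± 0.20, adjusted p = 8.1e-06). Asb4, Grb10, Peg3 and Zdbf2 were lower with log2 fold changes of -2.18, -1.66, -1.38 and -2.65, and the long noncoding RNA genes Kcnq1ot1 and Meg3 with log2 fold changes of -2.65 and -1.73. Phlda2 rose from 1.9 and 1.98 to 8.18 and 9.92 CPM. Igf2, at 965 and 988 CPM at E12.5 and 1046 and 1058 CPM at E13.5, and H19, at 2076 and 2105 CPM at E12.5 and 2727 and 2690.0 CPM at E13.5, did not pass.

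Xist, the RNA that silences one X chromosome in female cells, was present at both stages and lower at E13.5. Its level was 341 and 316 CPM at E12.5 and 50.1 and 44.8 CPM at E13.5 (log2 fold change -2.79 ± 0.29, adjusted p = 6.6e-06, and -1.82, adjusted p = 5.8e-05 with the length term), and its exons span 17946 bases. Tsix, which runs antisense to it, changed alike, from 112 and 118 to 19.5 and 18.3 CPM, but the preparation is not stated to mark strand, so their reads cannot be told apart. At E16.5 Xist was at 384 and 154 CPM, against the same E12.5 libraries. Both the Y-linked genes and Xist were lower at E13.5.

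The largest falls outside the lists already described were few. Among genes called in both fits, at 5 CPM or more and without overlap, the 10 largest falls held Nup62cl, Sprr2d and Acvr1c besides Col2a1, Amh, Cst9, Dhh, Cbln4, Etv2 and Egr3. Nup62cl, an X-linked relative of a nuclear pore gene, had 105 and 157 counts at E12.5 and 1 and 11 at E13.5. Sprr2d, a small proline-rich protein of epithelia, fell from 10.3 and 10.0 to 1.17 and 1.03 CPM and Acvr1c, which encodes a receptor of Nodal and activins, from 5.98 and 7.26 to 0.813 and 0.741 CPM. Under that same rule 1945 genes were higher and 1619 lower.

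For several of the leading genes the later fetal libraries are set beside those of E13.5, with both comparisons resting on the same E12.5 libraries. Foxl2 was at 7.88 and 9.55 CPM at E16.5, between the stages. Wt1 was at 326 and 240.3 CPM, above E13.5 and below E12.5. Sox9 was at 124 and 129 CPM, above both earlier stages, and Amh at 0.606 and 2.2 CPM, where the second library was above both of E13.5 and the first was not. Cdkn1b was at 539 and 637 CPM and Mfap4 at 362 and 344 CPM, both above E13.5. Ddx3y had 0 and 1 counts at E16.5, and Bmp2 was at 33.2 and 50.2 CPM, above the E13.5 level. The E16.5 replicates differed more from each other than those of the earlier stages, with 58 of 7481 genes more than 2-fold apart.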

How the data were processed

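RNA had been selected by its poly(A) tail, made into libraries with a kit not stated to mark strand, and sequenced. The authors deposited raw counts per gene symbol, from reads aligned to mm10 with HISAT2 and counted with featureCounts, whose versions are not given in the sources used here. The submitters' processing notes also name Trim Galore, FastQC, SAMtools and RSEM. For E12.5_GC the authors deposited FPKM, in a table normalised apart from the counts. A table of germ cell samples and 10x counts of cultured cells were not used here.

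Of 22173 genes in the count table, 16398 passed the filterByExpr filter of edgeR 4.0.16 (R 4.3.3). They were fitted in one quasi-likelihood model over 8 libraries (4 stages, 2 each) with TMM factors and no replicate block, and called at a Benjamini-Hochberg adjusted p below 0.05. CPM values are TMM-normalised. Exon lengths came from GENCODE vM21 on GRCm38, the assembly of mm10, for 16169 genes (98.6%), and symbols that had been turned into dates were left unmatched. The length term is a spline with 5 degrees of freedom fitted to each library. Where both libraries of 1 stage had at most 3 counts, that stage was set at a floor of 3 counts per library. Such bounds cover counting error only. Genes with at most 3 counts in all 4 libraries were left out of medians with bounds. Differences between single libraries used a pseudocount of 0.5 CPM. Promoters are the 250 bases before the RefSeq start. The scripts (Python 3.11.15, pandas 2.3.3, scipy 1.17.1) were tested on simulated data.

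The libraries and the 41 gene lists were chosen with earlier results of these data known, and no test was made over a list. Genes named by rule were markers taken from the study's subject, the 10 largest rises and falls called in both fits at 5 CPM or more without overlap, up to 4 called members of each list at 5 CPM or more, and markers of other cell types and of the Y chromosome. Further members of the lists, and Xist and Tsix, were chosen for their role after their values were seen. A few genes that the rule names are not reported here.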

Additional observations from a re-analysis of the deposited data

How the results depend on the processing

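The count of 7530 called genes was 7088 with DESeq2 1.42.0, 7492 with RLE size factors, 7894 of 21602 genes without a filter on low counts, 8848 with the 4 libraries alone in the fit, 7339 with a term for GC content, and 5332 to 5968 when each library was left out in turn, where the lone library of its stage is assumed to vary like the others. The term for length gave 5394. With a 2-fold change also required, 2785 genes were left, 1237 higher and 1548 lower, so that the higher share of calls moved from 51.9% to 44.4%. The correlation with gene length was -0.34 without the filter, over more genes of low counts. Of the named genes 173 were tested: 170 kept their direction and side of the threshold with DESeq2, 173 with RLE size factors, 169 with the GC term, 170 without the filter, and 161 to 166 with a library left out. With the length term 155 did so, 17 no longer passed and 1, Hist1h4i, turned from 0.68 to -0.16 on the log2 scale (-0.17 with a replicate block as well, an alternative chosen after seeing the data).

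The Wnt ligands had 5 called genes, and 3 without the filter, 3 with the length term, 2 with the GC term and 3 to 4 with a library left out. Complex I had 36 called genes, and 21 with the length term, also with the replicate block. The ribosomal protein genes had 78, and 44 with the length term or 45 with the block as well. Apart from gene length itself, the cause of these shifts was not tested.

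Replicate numbers were not found to pair the samples: the deviations of E12.5 and E13.5 replicates correlated at 0.05, and those of the other pairs of stages at -0.06 to 0.10. With a replicate block 7619 genes were called, 3935 higher and 3684 lower, and all 173 named genes kept their call. Depth limits the genes under about 1 CPM, among them several Y-linked and meiosis genes, and 2 libraries of a stage limit the rest.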
